A study of Sparus aurata with 16 samples.

Results

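The livers of 4 starved juveniles of gilthead sea bream (Sparus aurata) were compared with those of 4 juveniles fed LLH, the diet low in protein, low in lipids and high in carbohydrates. The letters of a diet name stand for the level of protein, lipids and carbohydrates, in this order. Fish fed LLH received 25 g/kg body weight once daily for 23 days, and the starved fish received no food over the same 23 days. With 4 fish each, HLL (rich in protein and low in both lipids and carbohydrates) and MHL (intermediate in protein, rich in lipids and low in carbohydrates) served as further fed groups. The members are the 8 channels of starved and LLH fish among the 32 array channels of the series, of which 16 are from liver, chosen by the title of each array. They lay on 6 of the 8 liver arrays, and every measured sequence of the array was used. An array holds the labelled RNA of 1 fish in the Cy5 dye and of 1 fish in the Cy3 dye. Fish 4 and fish 3 of both groups met directly on array C and on array H, and fish 1 and 2 of both groups lay on arrays with fish of the other diets. Each group had 2 fish in each dye, every fish was hybridised once, and all 8 liver arrays were printed on 1 slide. The groups are of individual fish, so that P values rest on the spread between fish. The paper kept fish in aquaria and the labels name no aquarium, so that effects of aquarium and of feeding cannot be told apart. For each sequence, 1 estimate of this spread within groups was shared by all 16 liver fish, HLL and MHL included.

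In the fed liver, carbohydrate is broken down by glycolysis, whose last step is catalysed by pyruvate kinase, and surplus carbon can be turned into fatty acids through malonyl-CoA, the product of acetyl-CoA carboxylase. During starvation the liver instead makes glucose from amino acids, and alanine aminotransferase links both routes because it interconverts alanine and pyruvate. A comparison of starvation with a carbohydrate-rich diet therefore concerns opposite demands on hepatic carbon metabolism. Per the paper, fish were sampled in the morning before the daily feeding hour, so that the fed livers were not taken shortly after a meal.

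The array carried 25225 sequences taken from an assembled transcriptome of liver and skeletal muscle, of which 24148 were measured by 2 different probes. Of these sequences 19488 are isotigs, which are assembled transcripts, and 5655 are single reads. Only 8 are listed under a gene symbol, and the files pair no other identifier with a gene. Descriptions by pathway therefore rest on these 8 sequences, and the tissue could not be checked against liver marker genes. Between 59.8 and 66.5% of the spots were well above background in starved fish and between 59.7 and 65.3% in LLH fish, and 0 spots were saturated. The median deviation of a fish from its group mean lay between 0.064 and 0.073 on the log2 scale, so that no starved or LLH fish stood apart by this measure. The SD of these deviations lay between 0.20 in LLH fish 4 and 0.28 in starved fish 2. For the Cy5 fish of array D, 1 label names HLL and another LLH, and it was taken as HLL, as in the title. Only this reading gives each group the 4 fish per condition of the paper, with 2 in each dye. Levels are given below as normalised log2 intensities, on which a difference of 1 is a 2-fold difference, and as mean ± SD.

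Many of the sequences measured in the liver differed between starved fish and fish fed LLH, and their number depended on the model. By limma and at an adjusted P value under 0.05, 2992 sequences were higher in starved fish (11.9% of those tested) and 2734 were lower (10.8%). Together these were 5726 or 22.7% (n = 4 fish per group). Log ratios in place of separate channels gave 1398 higher and 1278 lower. Arrays C and H alone, with 2 fish per group, gave 0 in each direction. Most of the differences were small, and 4544 of the 5726 (79.4%) were under 2-fold. The median change was 0.52 on the log2 scale among the higher and -0.55 among the lower sequences. The median over all sequences was close to 0, which the normalisation tends to bring about by itself. A difference in the tissue extract can come from fewer cells of a type or from less RNA per cell, and these cannot be told apart here.

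At least 2-fold higher in starved fish were 574 sequences (2.28%), and at least 2-fold lower were 608 (2.41%). Neither direction prevailed at every size. At least 4-fold changes were found in 137 higher and 151 lower sequences, at least 10-fold changes in 26 and 42, and at least 32-fold changes in 8 and 4. The near balance depended on the normalisation within arrays, and median centring in place of Loess gave 891 sequences at least 2-fold higher and 407 lower, so that the share of higher ones moved from 48.6 to 68.6%.

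**Figure D1:**
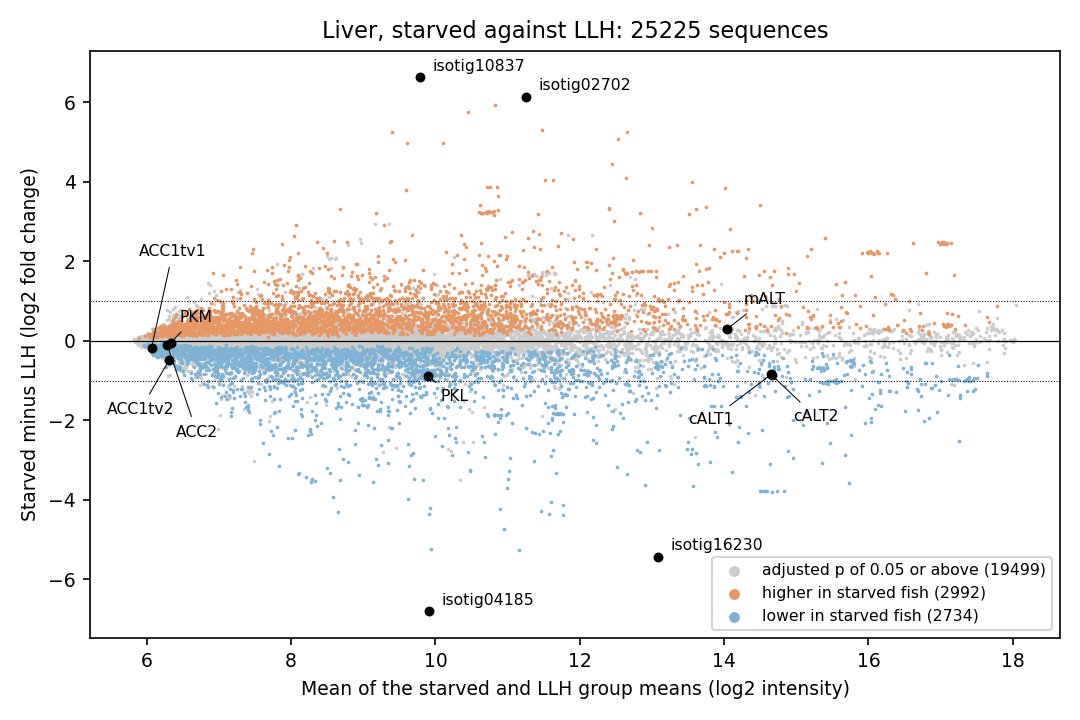
Log2 fold change of each sequence (starved minus LLH, vertical axis) against the mean of both group means (log2 intensity, horizontal axis), with sequences of adjusted P value under 0.05 in colour, 2-fold lines dotted and the named sequences in black. The 2992 higher and 2734 lower sequences lie on both sides of 0 over most of the range of intensities, and few of the dimmest sequences are coloured.

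The 4 starved fish all lay on 1 side of the 4 LLH fish in 5249 sequences (20.8%). Among the 5726 significant sequences, 4466 (78.0%) were separated in this way. The same fish entered the test that chose these sequences, so that this share is a description. How often a change was found depended on brightness. With the sequences ranked by intensity and cut into 4 classes of equal size, 0.745% were significant in the dimmest class, followed by 14.5, 33.2 and 42.4% in the brighter ones. The median standard error of the log2 difference was 0.04 in the dimmest and 0.13 in the brightest class. The background correction pulls the fold changes of dim sequences towards 0. Of 15492 sequences well above background in all 8 fish, 2723 were higher and 2541 lower, and of 4793 not well above background in any of the 8 fish, 8 and 5 were.

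Some sequences were above background in 1 group only. In all 4 starved fish and in 0 of 4 LLH fish 33 sequences were well above background, and 23 of them were significantly higher. In the opposite class 11 sequences were above background with LLH only, and 9 of them were significantly lower. These classes were formed from the signals of the same fish that were tested, so that the counts are a description. For all sequences the shares were 11.9% higher and 10.8% lower. For such sequences a bound was computed, namely the bright group's mean over the lowest signal that counted as above background in the dim group. Where the measured signal was higher it was used instead, and the value is then the observed ratio and no lower limit. The largest of these values was 3.24-fold for a sequence higher in starved fish, and 1.57-fold for one higher with LLH.

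Of the genes listed by symbol, PKL, the liver-type pyruvate kinase of glycolysis, was lower in starved fish. Its log2 intensity was 9.18, 9.68, 9.56 and 9.39 in starved fish 1 to 4, and 9.84, 10.37, 10.59 and 10.52 in LLH fish 1 to 4. All starved fish lay below all LLH fish, with means of 9.45 ± 0.22 and 10.33 ± 0.34. The log2 fold change was -0.89 (standard error 0.17, adjusted P value 0.0019 by limma), a 1.86-fold lower level under starvation. Both probes of PKL gave -0.89. Where starved and LLH fish shared an array the log2 difference was -1.13 on array C and -1.03 on array H, and it was -0.68 in fish 1 and 2. Among fed fish, PKL was at 10.12 ± 0.24 with HLL and 10.21 ± 0.34 with MHL, and LLH did not differ significantly from HLL (0.19, adjusted P value 0.70). In the fit restricted to arrays C and H, which has 2 fish per group, the adjusted P value was 0.058.

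PKM, the muscle-type pyruvate kinase, gave a low signal in the liver and no change was detected. The starved fish lay between 6.25 and 6.38 and the LLH fish between 6.24 and 6.51, so that the groups overlapped. The log2 difference was -0.05 (standard error 0.05, adjusted P value 0.63), and it changed sign to 0.01 without LLH fish 4, the brightest of the 8.

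The cytosolic alanine aminotransferases cALT1 and cALT2 were both lower in starved fish than with LLH. For cALT1 the starved fish were at 13.60, 14.43, 14.55 and 14.33, and the LLH fish at 15.08, 14.55, 15.21 and 15.49. The groups all but met, with LLH fish 2 at 14.549 and starved fish 3 at 14.546. The means were 14.23 ± 0.43 and 15.08 ± 0.39, and the log2 fold change was -0.84 (standard error 0.22, adjusted P value 0.013 by limma), or 1.80-fold lower. For cALT2 the log2 fold change was -0.87 (standard error 0.23, adjusted P value 0.014), with starved fish at 13.55, 14.47, 14.50 and 14.38 and LLH fish at 15.04, 14.53, 15.23 and 15.59.

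The pair gave nearly 1 measurement, since cALT1 and cALT2 differed by at most 0.114 in any of the 16 liver fish. Whether their probes tell the transcripts apart was not tested, and they are counted here as 2 sequences. Fed fish differed in the level of the cytosolic forms. HLL fish had 16.01 ± 0.16 for cALT1 and 16.04 ± 0.14 for cALT2, and LLH minus HLL was -0.99 (adjusted P value 0.043) and -1.01 (adjusted P value 0.047). This difference kept its direction but missed the threshold in most other settings, for instance without any 1 of HLL fish 1 to 4 (adjusted P values from 0.073 to 0.128). MHL fish were at 15.20 ± 0.32 and 15.22 ± 0.32, close to LLH. Starved minus HLL was -1.84 for cALT1 and -1.87 for cALT2.

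The difference of the cytosolic forms between starved and LLH fish lost significance in 5 of 25 alternative settings. One was without LLH fish 4, where it was -0.64 for cALT1 and -0.63 for cALT2, with adjusted P values of 0.056 and 0.055. It was also lost in the fit of log ratios, with adjusted P values of 0.092 and 0.084, and with the 8 starved and LLH channels alone, with 0.061 and 0.070.

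The mitochondrial alanine aminotransferase, mALT, did not pass the test. Its levels were 13.99, 14.45, 14.31 and 14.06 in starved fish and 13.79, 13.82, 14.001 and 13.90 in LLH fish. The highest LLH fish was just above the lowest starved fish, so that the groups overlapped. The log2 difference was 0.29 (standard error 0.16, adjusted P value 0.23), while median centring gave 0.54 with an adjusted P value of 0.028. Whether the change of mALT differs from that of the cytosolic forms was not tested.

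The acetyl-CoA carboxylases, which make malonyl-CoA for fatty acid synthesis (ACC1) and for the control of mitochondrial fatty acid uptake (ACC2), gave low signals. The variant ACC1tv2 was at 6.11, 5.91, 6.15 and 6.10 in starved fish and at 6.47, 6.75, 6.54 and 6.48 in LLH fish, without overlap. It was well above background in 4 LLH fish and in 0 starved fish. The measured starved signals lay above the lowest signal that counted as above background. The value of 1.41-fold is therefore the ratio of the measured means and no lower limit. The fitted log2 difference was -0.47 (standard error 0.13, adjusted P value 0.016 by limma), and it lost significance in 3 of 25 alternative settings. It was -0.44 without LLH fish 3, with an adjusted P value of 0.057, and -0.37 in the fit of log ratios, with 0.077. In the fit restricted to arrays C and H it was -0.39, with 0.13. The size of a difference this close to background depended on the background correction, with -2.62 from the processed signals of the scanner.

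The other variant, ACC1tv1, was also lower in all starved fish, which lay between 5.85 and 6.04, than in the LLH fish, which lay between 6.07 and 6.30. Only 1 LLH fish and 0 starved fish gave a spot well above background. Its log2 difference of -0.17 (standard error 0.06) missed the threshold with an adjusted P value of 0.051, and it passed in 9 of 25 alternative settings. Its probes gave -0.04 and -0.30. ACC2 overlapped between the groups and differed by -0.11 (standard error 0.05, adjusted P value 0.18). Among fed fish both ACC1 variants were higher with HLL than with LLH, at 7.27 ± 0.40 against 6.56 ± 0.13 for ACC1tv2 (LLH minus HLL -0.71, adjusted P value 0.020) and at 6.51 ± 0.17 against 6.16 ± 0.10 for ACC1tv1 (-0.37, adjusted P value 0.014). With the log ratios the adjusted P values of these differences between diets were 0.25 and 0.26. Thus 4 of the 8 sequences listed by gene symbol were lower in starved fish, 0 were higher and 4 did not pass the test. Over all sequences 10.8% were lower. Of the 8, cALT1 and cALT2 gave nearly 1 measurement, and ACC1tv1 and ACC1tv2 are variants of ACC1. The share of lower sequences also depended on brightness, with 0.412% in the dimmest and 20.3% in the brightest class. Whether these 8 sequences differ from others was not tested.

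**Figure D2:**
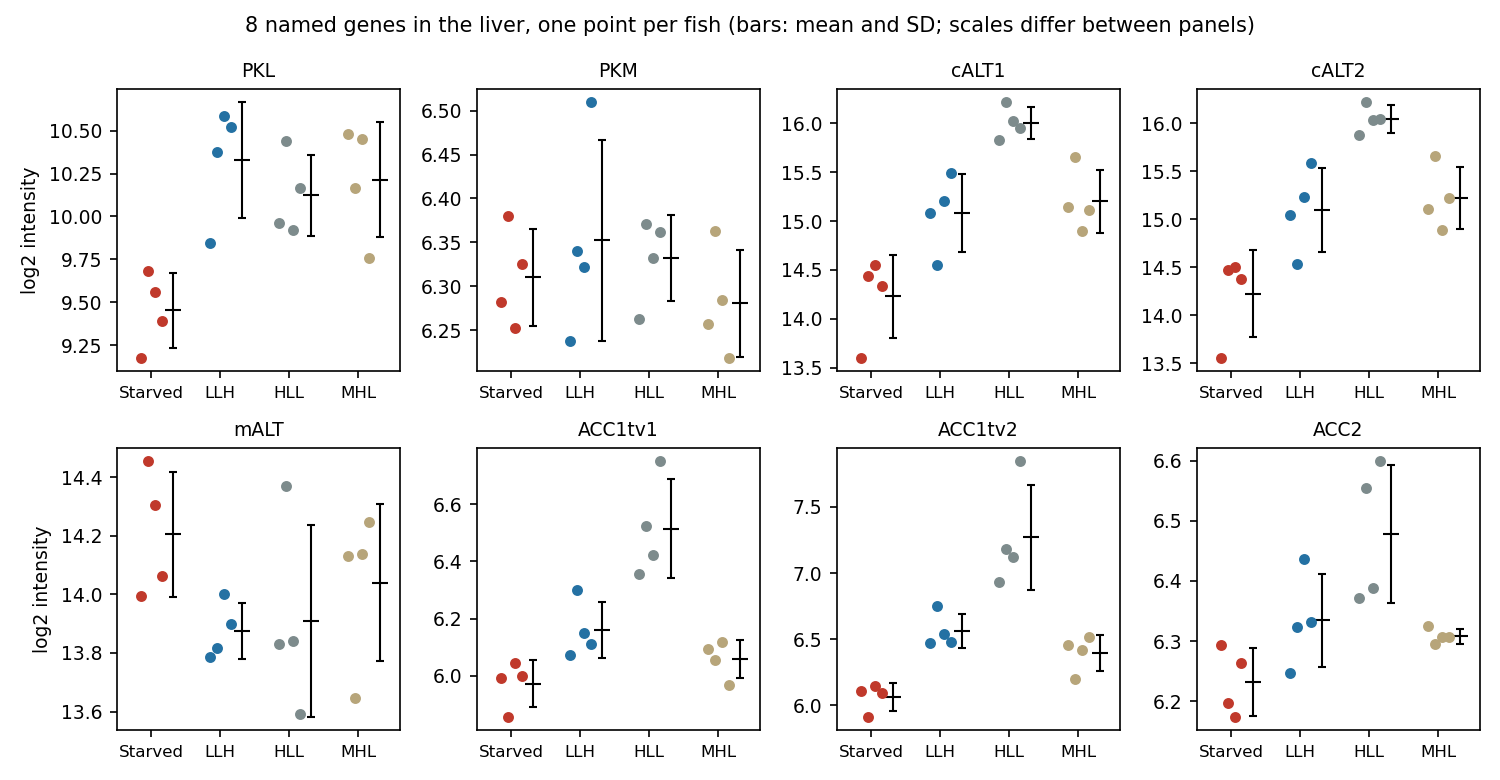
Normalised log2 intensity (vertical axes, scaled by panel) of the 8 sequences listed by gene symbol in each of 4 fish per group. Mean and SD are beside the points. PKL, cALT1, cALT2 and ACC1tv2 are lower in starved than in LLH fish, and the cytosolic forms are highest with HLL.

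The largest changes of the array were in sequences without a gene name. The sequence isotig10837 was at 12.97, 13.08, 13.11 and 13.30 in starved fish 1 to 4, and at 6.26, 6.49, 6.19 and 6.91 in LLH fish 1 to 4. Its log2 fold change of 6.63 (standard error 0.18, adjusted P value 7.27e-10 by limma) is a 98.8-fold higher level in starved fish. The LLH level was close to background, with 3 of 4 LLH fish well above it. On arrays C and H, where both fish were measured on 1 array, the differences were 6.39 and 6.92, and 6.65 in fish 1 and 2. How large it came out depended on the background correction, and the processed signals of the scanner gave 9.02 on the log2 scale.

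The second, isotig02702, was at 13.90, 14.27, 14.62 and 14.64 in starved fish and at 7.45, 9.31, 7.73 and 8.15 in LLH fish. Here both groups were well above background in all 8 fish, and the log2 fold change was 6.15 (standard error 0.52, adjusted P value 7.09e-06), or 70.8-fold. The LLH fish spread over 1.86 on the log2 scale and the starved fish over 0.74.

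The sequence isotig04185 was the most strongly lowered. It was at 6.28, 6.08, 6.90 and 6.67 in starved fish and at 13.07, 13.46, 13.58 and 13.20 in LLH fish. The log2 fold change was -6.80 (standard error 0.26, adjusted P value 2.39e-08), or 111.8-fold lower. The starved level was close to background, with 4 of 4 starved fish well above it, so that the size depended on the background correction. LLH lay at 13.33 ± 0.24 against 13.40 ± 0.73 with HLL and 12.67 ± 0.21 with MHL, and LLH differed significantly from neither. The processed signals of the scanner gave a log2 fold change of -8.14.

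In isotig16230 the decrease was smaller than in isotig04185, and the fish were far more variable. Starved fish were at 9.32, 10.24, 10.02 and 11.80, and LLH fish at 16.62, 13.59, 15.89 and 17.24. All starved fish were still below all LLH fish, and the log2 fold change was -5.43 (standard error 0.67, adjusted P value 9.80e-05), or 43.2-fold lower. LLH fish 2 was the lowest of the LLH fish by more than 2 on the log2 scale, and LLH fish 4 was the highest. The log2 fold change was -6.11 without LLH fish 2 and -4.78 without LLH fish 4, and the test was passed in both cases.

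**Figure D3:**
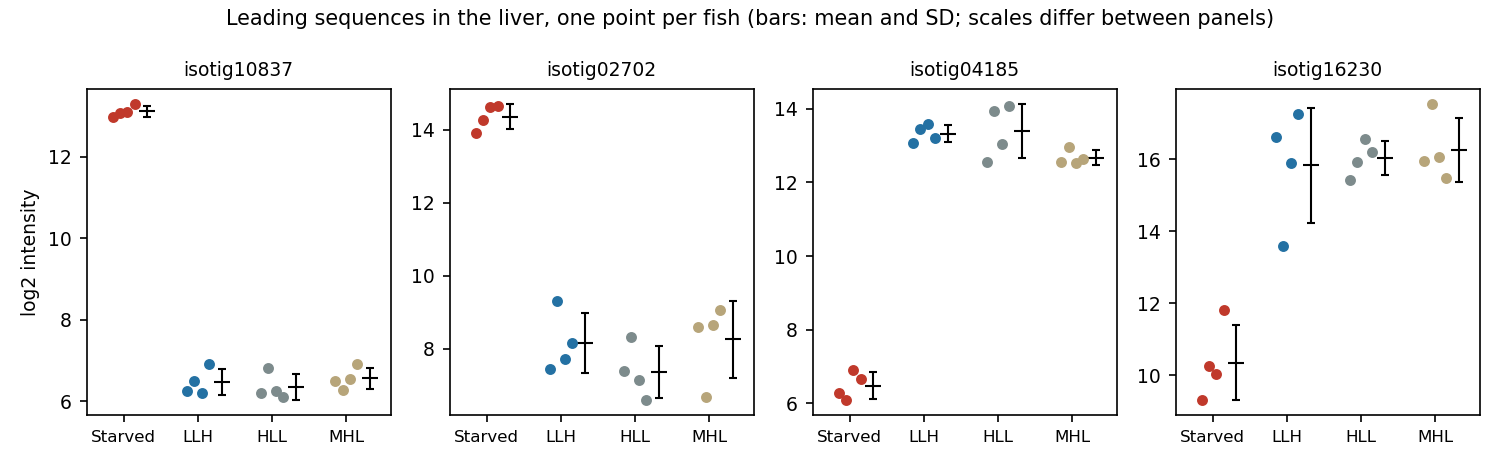
Normalised log2 intensity (vertical axes, scaled by panel) of the 2 sequences with the largest increase and the 2 with the largest decrease in each of 4 fish per group, with mean and SD beside the points. In each panel the 4 starved fish lie apart from all 12 fed fish, and the fed fish of isotig16230 and isotig02702 spread most.

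The 15 sequences with the largest increase, taken among those separated between all fish, of the same sign on arrays C and H and in both probes, were 16.04- to 98.8-fold higher in starved fish, with adjusted P values up to 0.0014. Their means ran from 6.46 to 11.57 with LLH and from 12.01 to 15.55 in starved fish. The 15 with the largest decrease were 15.7- to 111.8-fold lower, with adjusted P values up to 0.040, and their means ran from 10.90 to 15.83 with LLH and from 6.40 to 10.35 in starved fish. In each list all 8 fish were well above background in 14 of the 15 sequences. The decreases were the more variable list, with a median SD of 0.94 in starved fish and 0.91 with LLH, against 0.41 and 0.55 for the increases.

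The median differences from the other diets were close to that from LLH. For the 15 increases, the median log2 difference of starved fish was 5.07 from LLH, 5.03 from HLL and 5.14 from MHL. For the 15 decreases it was -4.35 from LLH, -4.42 from HLL and -4.53 from MHL. These comparisons share the starved fish, and a sequence chosen by its difference from LLH has no test here. Since the choice of the 15 used the same LLH fish, the next counts are a description. LLH differed significantly from HLL in 1 of the 15 increases and in 2 of the 15 decreases. In both of these decreases LLH was the higher, by 2.87 and 3.26 on the log2 scale. Starved fish differed there from HLL by -1.33 and -0.81, against -4.21 and -4.07 from LLH. In another of the 15 decreases, starved fish differed by -1.41 from HLL and by -5.25 from LLH. Its LLH fish were uneven, with 16.414 in LLH fish 2 and 10.469, 11.985 and 11.248 in LLH fish 1, 3 and 4. LLH minus HLL was 3.83 there and missed the threshold, with an adjusted P value of 0.10 by limma. None of these differences of starved fish from HLL passed the threshold, so that the medians do not hold for every sequence. Over all sequences, LLH differed from HLL in 552 (2.19%) and from MHL in 1 (0.00396%). With log ratios LLH differed from HLL in 3 sequences and from MHL in 0. The corresponding numbers for starved fish were 6396 (25.4%) against HLL and 5881 (23.3%) against MHL.

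Several isotigs can stand for 1 gene, and the counts above are of sequences. Of 1036 isotigs that changed at least 2-fold, 383 belonged to a pair with consecutive numbers in which both changed at least 2-fold, and 235 of these 256 pairs changed in the same direction. Grouping the 1182 sequences so that members of a set differed by at most 0.5 on the log2 scale in each of the 16 liver fish left 891 sets, 423 higher and 468 lower, of which 716 held a single sequence. The grouping was chosen after the values were seen. In 16 sets there were 5 or more members, 116 sequences in all. One set held 10 isotigs with a mean of 15.85 with LLH and 18.23 in starved fish, and each of them was higher by 2.43 to 2.49. A set of 13 isotigs, 12 of them following on the number before, was higher by 3.21 to 3.28. A set of 5 isotigs was at 16.40 with LLH and at 12.69 in starved fish, with log2 fold changes from -3.79 to -3.78. The members of such sets are no independent evidence of each other, and which genes they are is not given in the files.

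The difference was also computed from separate fish of each group. Starved and LLH fish 3 and 4 shared an array, whereas fish 1 and 2 were on different arrays. All of the 1182 sequences changed at least 2-fold had the same sign in both pairs of fish, and 5 of them differed in sign between array C and array H. Of all 5726 significant sequences, 5583 (97.5%) had the same sign on array C, on array H and in fish 1 and 2. These fish all entered the test that chose the sequences, so that the shares are a description. Over all 25225 sequences, which are not independent replicates, the differences from the shared arrays correlated with those of fish 1 and 2 at Pearson's r = 0.71, and those of array C with those of array H at r = 0.71. Among the 1182 sequences the difference on the shared arrays was 1.21 times that in fish 1 and 2 in the median.

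**Figure D4:**
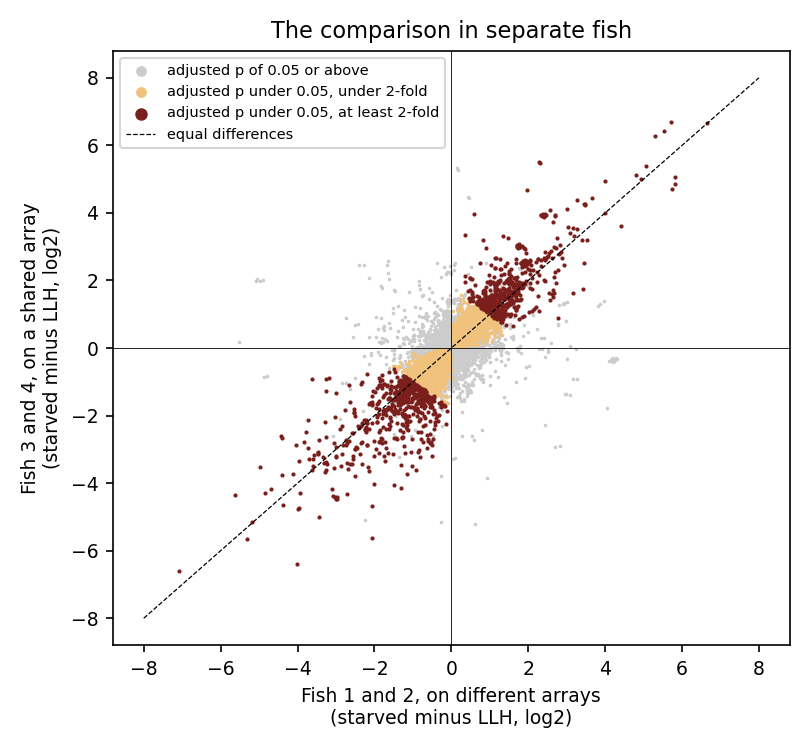
Log2 difference of starved minus LLH for each sequence in fish 3 and 4, measured on shared arrays C and H (vertical axis), against fish 1 and 2, measured on different arrays (horizontal axis), with the line of equal differences dashed. The sequences changed at least 2-fold, in dark red, lie in 2 quadrants only, and a number of grey sequences differ strongly in 1 pair of fish and not in the other.

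The probes of a sequence gave the same direction in most of the significant sequences. With 2 probes, 5367 of 5505 (97.5%) had both probes of the same sign, while the share was 74.7% over all sequences with 2 probes. Both probes entered the mean that was tested, which by itself raises the share among significant sequences, so that these shares are a description. Of 1125 sequences that changed at least 2-fold and had 2 probes, 1119 had both of the same sign and 965 had both probes at 1 or more on the log2 scale. The median difference between the 2 probes was 0.11. Isotigs were significant in 24.6% of cases (2551 higher and 2246 lower) and single reads in 16.02% (437 and 469), and the median log2 intensity was 7.26 for isotigs and 6.42 for single reads.

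The results were repeated with the other readings of the Cy5 fish of array D. With this fish added to the 4 LLH fish 3050 sequences were higher and 2799 lower, and with it left out 2951 and 2735. Taking this fish as LLH departs from the 4 fish per condition of the paper. The number of sequences that differed between LLH and HLL was then 1 in place of 552. ACC1tv1 passed the threshold against starved fish in both cases, at -0.23 (adjusted P value 0.024) and -0.18 (adjusted P value 0.047).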

How the data were processed

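RNA from the liver of single fish was labelled with Cy3 or Cy5 by the authors and hybridised on 2-colour Agilent arrays. Per the file headers and labels, the arrays were read with Agilent Feature Extraction (version 10.7), and the deposited scanner files hold for each spot the median intensity with its local background, processed intensities corrected for background and dye, and a log10 ratio (Cy5 over Cy3). A deposited value table holds log2 ratios that the authors had normalised. Its rows follow the feature numbers backwards, as shown by their match to the scanner ratios (correlations from 0.834 to 0.909), and it was used as an alternative. The number of arrays limits the precision.

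Values were computed in limma (3.58.1) and statmod (1.5.0) under R (4.3.3). The median intensities were background-corrected by normexp (offset 50), 1319 control spots were dropped, and 329 of 493256 spot readings that carried an outlier flag were set to missing. As named in the paper's methods, Loess served within arrays and Aquantile between them. Spots were averaged per probe, and probes per sequence after each probe's mean was removed. All 16 liver channels entered 1 model of group and dye, in which the 2 channels of an array were correlated (0.163, by duplicateCorrelation over all sequences). P values are two-sided and adjusted by Benjamini-Hochberg over the 25225 sequences, with 0.05 as the threshold. The code of the fit was run on data simulated from the fitted model itself, which cannot test the assumptions of that model.

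Groups were taken from the array titles. The members and gene lists were chosen with earlier results of these data known. Named are the 8 sequences listed by gene symbol. Because the files pair no other identifier with a gene, only 2 further sequences per direction are named. They come from the 15 with the largest significant change that separated all fish and had 1 sign on both shared arrays and in both probes. Of the identifiers, 0 matched a RefSeq name of the fSpaAur1.1 assembly, so that lists of pathway and marker genes could not be used and no sequences are shown. Starved and LLH fish of the same number were not treated as pairs. Their deviations from the group means correlated at -0.16 to 0.01. With means of 4 fish, and with fish 3 and 4 also sharing an array, these values cannot decide whether the numbers mark pairs.

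Alternatives were log ratios, no dye term, other background corrections and normalisations, a filter on dim probes, the brightest probe, fewer channels, both other readings of the Cy5 fish of array D, another channel correlation, the fish number as a block and each fish left out in turn.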

Additional observations from a re-analysis of the deposited data

Results flagged for a closer look

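Starved fish 1 lay apart from the other starved fish in cALT2, with a log2 intensity of 13.553 where the others lay between 14.377 and 14.501. In cALT1, nearly the same measurement, this fish was also the lowest, at 13.597 against 14.335 to 14.546, without being flagged. The flag in cALT2 was 1 among 24 groups of 4 fish tested for the 12 sequences named in the text. Chance gives about 1 in 20. Without starved fish 1 the log2 difference of cALT2 between starved and LLH fish was -0.69, with an adjusted P value of 0.042 by limma, and it was lower in 3 of 3 remaining starved fish than in each LLH fish. What set this fish apart was not tested.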

How the results depend on the processing

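Of the 25 alternatives for starved against LLH fish, 1 (the channel correlation by intraspotCorrelation) and the recalculation of the contrasts between diets were chosen after seeing the data. Among the 5726 significant sequences, a significant change in the opposite direction was found in 1 sequence with the brightest probe and in 0 under each of the others. Against 2992 higher and 2734 lower sequences, log ratios gave 1398 and 1278, the authors' log2 ratios gave 1489 and 1420, and median centring gave 4529 and 3698. Arrays C and H alone, with 2 fish per group, gave 0 in each direction and 0 changed at least 2-fold (limma), while 5609 sequences had an unadjusted P value under 0.05. At least 2-fold changes rose from 574 and 608 to 1100 and 1059 with the signals processed by Feature Extraction, and to 891 higher with median centring. Without each fish in turn there were 2350 to 2880 higher and 2135 to 2599 lower sequences. PKM changed sign, with log2 differences from -0.078 to 0.010 without each fish.

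The fish number as a replicate block gave 2701 higher and 2482 lower sequences, of which 558 and 561 changed at least 2-fold. It changed no call of the 12 named sequences between starved and LLH fish, and whether the numbers mark pairs of fish cannot be decided here.

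The number of sequences that differed between LLH and HLL, 552, fell with log ratios to 3, with the authors' log2 ratios to 2 and with the Cy5 fish of array D taken as LLH to 1. It was 227 with that fish left out, 362 without a dye term, 299 with a normexp offset of 0, 299 with the signals processed by Feature Extraction, 167 with median centring, 335 without normalisation between arrays and 327 with the replicate block. Without each fish it lay between 170 and 600, with 170 and 254 without LLH fish 1 and 3, and 217, 212 and 241 without HLL fish 1, 2 and 3. LLH and MHL differed in 0 or 1 sequences under the other settings, and in 0 to 7 without each fish (7 without MHL fish 2).

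Not run were the mean spot intensity, which is not among the columns used here, and the settings for gene lists, which need gene names.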
